A study of Mus musculus with 12 samples.

Results

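The cytochrome P450 genes of families 2, 3 and 4 were followed across 12 mouse livers of 4 genotypes, with 3 livers each, by RNA-seq of whole liver tissue. Members were the protein-coding genes whose symbol starts with Cyp2, Cyp3 or Cyp4 and a subfamily letter, with 2 genes left out (*Cyp2e1* and *Cyp2f2*, which mark the zones of the liver lobule), and with at least 10 counts in 3 or more libraries. Of 77 candidate genes, 58 met this minimum, out of 40551 genes in each count table. None of the other 19 reached 10 counts in any library, and the highest count among them was 7. The member nearest the limit by total, *Cyp2d11*, had 135 counts over all libraries and reached the minimum in 8 of them. A member was judged to have changed after loss of *Mcl1* only where it passed the test with the same sign both with and without *Sting1*. Members that passed in 1 of these comparisons, or in the mean of both, are given as results of that comparison alone and are not judged changed.

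The WT livers carried neither gene defect. *Mcl1* KO livers lacked *Mcl1*, which encodes a survival protein that holds the apoptosis effectors BAK and BAX in check, in hepatocytes, because the floxed gene was removed by a Cre recombinase driven by the albumin promoter. Immune and endothelial cells of the liver keep the gene in this model. *Sting1* KO livers came from mice without *Sting1* in the whole body, which encodes the STING adaptor that senses cytosolic DNA through cyclic dinucleotides, and *Mcl1* *Sting1* DKO livers carried both defects. WT, *Mcl1* KO and *Mcl1* *Sting1* DKO mice were 2 months old, and the age of the *Sting1* KO livers is not given in the sources used here. Whether WT and *Sting1* KO mice carried the floxed allele without Cre is not given either. The labels list the 3 livers of a genotype as separate samples, so p-values measure the spread between these livers.

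The libraries held 28826367 to 45266387 counts, and the 58 members took 1.19% to 2.30% of them. *Mcl1* stood at 18.1 to 34.0 CPM (read counts scaled to the library total with edgeR's TMM factors) in the 6 livers labelled with its deletion and at 77.0 to 104 CPM in the others. *Sting1* transcript separated its labels only among livers without *Mcl1*. It stood at 1.16 to 2.70 CPM in the libraries labelled *Sting1* KO and at 2.11 to 2.53 CPM in WT, although *Mcl1* *Sting1* DKO livers (1.90 to 2.53 CPM) lay below *Mcl1* KO livers (3.67 to 5.997 CPM), and which part of the gene is missing is not given. All 8 hepatocyte marker genes were present, with summed levels of 117997 to 188199 CPM. Sex is not in the labels. Summed transcripts of 4 Y-linked genes reached 157 CPM in WT 2, 152 CPM in WT 3 and 141 CPM in *Mcl1* *Sting1* DKO 1, and at most 0.190 CPM in the other 9 livers; those 3 are called male livers and the 9 female livers here. No *Mcl1* KO or *Sting1* KO liver was male, so genotype and sex are partly confounded. The library of *Mcl1* KO 3 also held 5947 CPM of pancreas acinar and 1346 CPM of skeletal muscle marker transcripts, against at most 30.9 and 6.11 CPM elsewhere, and small RNA transcripts took 2.37% of counts in *Mcl1* KO 2 and 1.36% in *Mcl1* KO 3, against 0.172% to 0.897% elsewhere.

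P450 enzymes are heme proteins of the endoplasmic reticulum that use oxygen and electrons passed on by P450 reductase and cytochrome b5 to oxidise their substrates. Families 2 and 3 handle drugs, steroids, bile acids and polyunsaturated fatty acids, and family 4 hydroxylates the far end of fatty acid chains. In mouse liver many of these genes differ between the sexes under the pulse pattern of growth hormone and STAT5b, and others answer to the nuclear receptors CAR, PXR and PPAR-alpha.

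The mean levels of the members covered a wide range in these livers, from 0.393 to 2247 TPM. On TPM, a scale that also divides by transcript length and so allows genes to be compared, 31 of 58 members had a mean level of at least 100 TPM over the 12 livers, and 4 stayed under 1 TPM. *Cyp3a11*, the main PXR-induced drug-metabolising enzyme of mouse liver, had the highest mean level at 2247 TPM, followed by the steroid 15-alpha-hydroxylase *Cyp2a4* with 1730 TPM and by *Cyp2d26* with 1393 TPM. *Cyp2a4* stood at 783 ± 1322 TPM in WT (SD, n = 3) and at 2437 ± 400 TPM in *Sting1* KO, so its place in this order moved with the liver. *Cyp2d26* varied less, at 1497 ± 247 TPM in WT, 1145 ± 234 TPM in *Mcl1* KO, 1631 ± 95.9 TPM in *Sting1* KO and 1300 ± 222 TPM in *Mcl1* *Sting1* DKO. *Cyp2c29*, a CAR-responsive epoxygenase of arachidonic acid, led the *Cyp2c* genes with 1197 TPM, the arachidonic acid epoxygenase *Cyp2j5* led the *Cyp2j* genes with 499 TPM, and the fatty acid omega-hydroxylase *Cyp4a10* led the *Cyp4a* genes with 492 TPM. The leading members of the remaining groups were *Cyp2b9* (585 TPM), *Cyp4v3* (372 TPM), *Cyp4f14* (171 TPM) and *Cyp2u1* (27.6 TPM).

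Summed over all members, levels overlapped between every pair of genotypes but *Mcl1* KO and *Sting1* KO, a pair that differs in both genes. The sum was 24750, 14799 and 16621 TPM in WT 1, 2 and 3, and 15768, 10249 and 20169 TPM in *Mcl1* KO 1, 2 and 3. It was 21471, 23978 and 20727 TPM in the *Sting1* KO livers and 12533, 19883 and 22881 TPM in the *Mcl1* *Sting1* DKO livers. The genotype means were 18723 ± 5298 TPM in WT, 15396 ± 4970 TPM in *Mcl1* KO, 22059 ± 1703 TPM in *Sting1* KO and 18432 ± 5324 TPM in *Mcl1* *Sting1* DKO (SD, n = 3 each). The male livers WT 2 and *Mcl1* *Sting1* DKO 1 had the lowest sum of their genotype, and the male liver WT 3 the next lowest in WT. The share of *Cyp3a11* in the sum ran from 3.96% in WT 3 to 28.8% in *Mcl1* KO 3. The 8 *Cyp2d* members together stood at 3875 ± 1075 TPM in WT, 1701 ± 338 TPM in *Mcl1* KO, 2447 ± 85.3 TPM in *Sting1* KO and 2292 ± 312 TPM in *Mcl1* *Sting1* DKO. The WT value held 1494 ± 1230 TPM of the male-biased *Cyp2d9*. That gene gave 76.8 TPM in *Mcl1* KO, 76.0 TPM in *Sting1* KO and 390 TPM in *Mcl1* *Sting1* DKO. The *Cyp2d* sum was 2652 TPM in WT 1, and 4296 and 4676 TPM in the male livers WT 2 and WT 3.

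**Figure D1:**
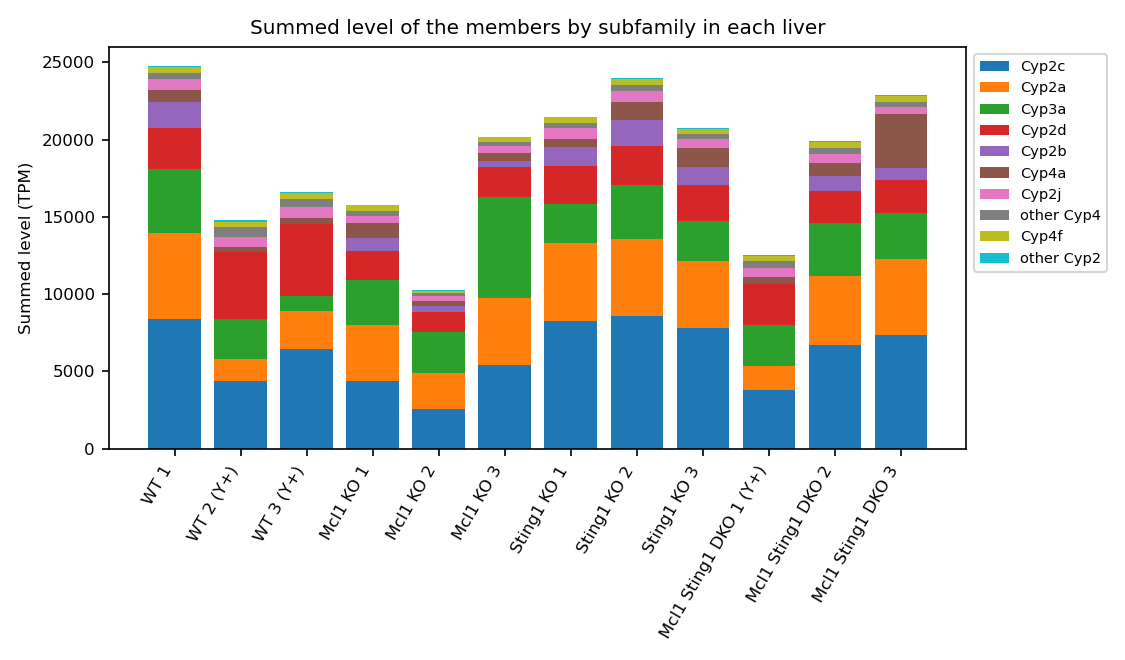
Summed level of the 58 members in each of the 12 livers, in TPM on a linear axis from 0, stacked by subfamily group; livers with Y-linked transcripts are marked. The bars run from 10249 TPM in Mcl1 KO 2 to 24750 TPM in WT 1, and each genotype without Mcl1 overlaps with WT.

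Seen liver by liver, the members fell into genes that followed the Y-linked transcripts and genes that did not. The heat map of single members shows a block of genes with high values in the 9 female livers and low values in WT 2, WT 3 and *Mcl1* *Sting1* DKO 1, and a smaller block with the opposite pattern.

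**Figure D2:**
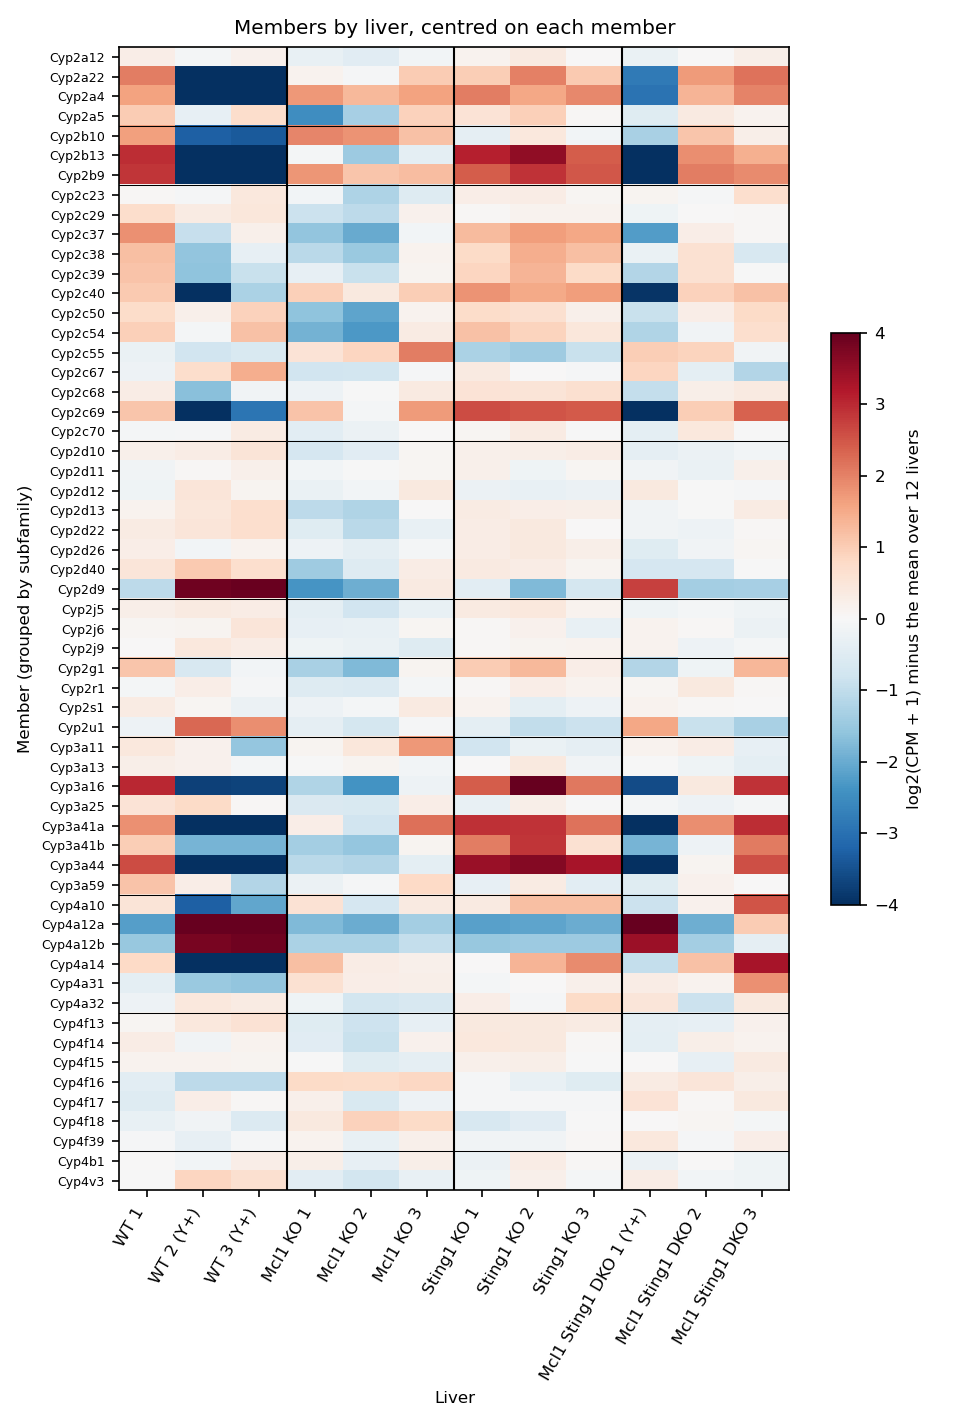
Level of each of the 58 members (rows) in each of the 12 livers (columns), as log2(CPM + 1) minus the member's mean over the 12 livers, with colours capped at a difference of 4. The columns of WT 2, WT 3 and Mcl1 Sting1 DKO 1 stand apart from the other 9.

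Between male and female livers, 16 of the 58 members changed in a fit with genotype and sex as factors, a comparison added after the data were seen. In male livers 4 members were higher and 12 were lower, against 0.425% of all 15070 tested genes higher and 0.584% lower. Adjusted p-values here and below come from edgeR's quasi-likelihood test with Benjamini-Hochberg adjustment over all tested genes, and fold changes are on the log2 scale with their SE. The male side rests on 3 livers in 2 genotypes. Leaving out WT 1, the only female WT liver, left 7 members called, and the WT and *Mcl1* *Sting1* DKO livers alone gave 10.

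Among the members known as male-biased, *Cyp2d9*, a testosterone 16-alpha-hydroxylase, stood at 1758 CPM in WT 2, 1826 CPM in WT 3 and 781 CPM in *Mcl1* *Sting1* DKO 1. In the female livers it ran from 22.0 CPM in *Mcl1* KO 1 to 148 CPM in *Mcl1* KO 3. Every male liver lay above every female liver, with a sex coefficient of 4.56 (SE 0.73, adjusted p = 0.0119). The fatty acid hydroxylase *Cyp4a12b* stood at 38.7, 40.6 and 29.6 CPM in the male livers and at 0 to 1.20 CPM in the female livers, with a coefficient of 6.48 (SE 0.85, adjusted p = 0.00241). Its near copy *Cyp4a12a*, the main male omega-hydroxylase of arachidonic acid in mouse, stood at 142, 171 and 92.6 CPM in the male livers and at 0 to 8.40 CPM in the female livers, but did not pass the test (6.41, adjusted p = 0.0663). *Cyp2u1*, a long-chain fatty acid hydroxylase that was named as the leading gene of its group and not for sex, stood at 172, 126 and 101 CPM in the male livers and at 13.3 to 32.5 CPM in the female livers, and was higher in the male livers by 2.52 (SE 0.24, adjusted p = 0.000283). *Cyp2c67*, named after its values were seen, was the other member higher in male livers (1.47, SE 0.29, adjusted p = 0.0423).

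Among the 9 members known as female-biased, 7 were lower in the male livers at the threshold. *Cyp2b9*, a testosterone hydroxylase and the leading *Cyp2b* gene, stood at 0.0593 CPM in WT 2, 0.132 CPM in WT 3 and 0.535 CPM in *Mcl1* *Sting1* DKO 1. Its female levels were 671 CPM in WT 1, 314, 198 and 216 CPM in the *Mcl1* KO livers, 488, 676 and 516 CPM in the *Sting1* KO livers, and 383 and 337 CPM in *Mcl1* *Sting1* DKO 2 and 3 (adjusted p = 5e-06 for sex). Its neighbour *Cyp2b13* was counted 0, 0 and 1 times in the male livers and 231 to 9620 times in the female livers (adjusted p = 5e-06). *Cyp2a4* stood at 0.297, 19.0 and 43.5 CPM in the male livers and at 843 to 1413 CPM in the female livers (-5.73, SE 1.01, adjusted p = 0.0212). The female-type gene *Cyp2c69*, in the *Cyp2c* cluster, stood at 0.949, 22.5 and 3.31 CPM in the male livers and at 167 to 1077 CPM in the female livers (-6.24, SE 1.13, adjusted p = 0.0236). *Cyp2c40*, a neighbouring gene whose enzyme oxidises arachidonic acid, stood at 2.97, 61.7 and 8.82 CPM in the male livers and at 196 to 521 CPM in the female livers, and missed the threshold (adjusted p = 0.0588). The other members lower in male livers were *Cyp2b10*, *Cyp4a10* and *Cyp4a14*, described with the receptor targets, and *Cyp2a22* (-6.39, adjusted p = 0.000283) and *Cyp2c39* (-2.40, adjusted p = 0.0159), both named after their values were seen.

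The 4 female-type *Cyp3a* genes, which encode steroid 6-beta-hydroxylases, were close to 0 in every male liver. *Cyp3a16* stood at 0.0593, 0.0991 and 0.200 CPM there (adjusted p = 0.00228) and *Cyp3a44* at 0.119, 0.0330 and 0.434 CPM (adjusted p = 0.000276). *Cyp3a41a* was counted 0, 1 and 1 times in the male livers (adjusted p = 0.000276), and *Cyp3a41b* was counted 0 times in each of them (adjusted p = 0.0663). *Cyp3a11*, in the same cluster on chromosome 5, stood at 3218, 983 and 3169 CPM in the male livers and at 1677 to 9497 CPM in the female livers, which overlap.

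The promoters of genes in these sets are shown because they are near-identical copies, and how the counting handled reads that match more than 1 gene is not given in the sources used here. Each window holds the 250 bases before the transcription start in RefSeq (table built on GRCm38.p6), matched once and exactly in GRCm39. The first pair lies on chromosome 7, *Cyp2b9* at chr7:25872584-25872833 and *Cyp2b13* at chr7:25760670-25760919, both on the plus strand, with capitals at the bases where the pair differs.
Cyp2b9: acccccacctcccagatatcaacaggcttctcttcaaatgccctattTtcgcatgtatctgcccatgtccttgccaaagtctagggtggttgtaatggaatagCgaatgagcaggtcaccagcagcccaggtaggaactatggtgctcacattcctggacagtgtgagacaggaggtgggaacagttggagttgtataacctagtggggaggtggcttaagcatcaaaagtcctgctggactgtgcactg
Cyp2b13: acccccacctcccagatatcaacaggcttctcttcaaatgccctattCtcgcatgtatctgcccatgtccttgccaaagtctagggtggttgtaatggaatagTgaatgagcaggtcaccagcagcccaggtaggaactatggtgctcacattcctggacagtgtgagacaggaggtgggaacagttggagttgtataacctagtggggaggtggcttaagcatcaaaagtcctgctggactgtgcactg
These windows were identical at 248 of 250 bases and differed at positions -203 and -147 from the start. The other set lies on the minus strand of chromosome 5, *Cyp3a41a* at chr5:145656947-145657196, *Cyp3a41b* at chr5:145521541-145521790 and *Cyp3a44* at chr5:145742685-145742934, with capitals in *Cyp3a44* at the bases that differ from *Cyp3a41a*, and in *Cyp3a41a* and *Cyp3a41b* at the base where that pair differs.
Cyp3a41a: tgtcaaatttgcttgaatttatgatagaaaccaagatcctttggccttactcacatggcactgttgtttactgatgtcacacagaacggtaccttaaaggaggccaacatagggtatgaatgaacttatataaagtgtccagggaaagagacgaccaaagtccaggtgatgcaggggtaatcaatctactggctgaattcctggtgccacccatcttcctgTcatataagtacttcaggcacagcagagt
Cyp3a41b: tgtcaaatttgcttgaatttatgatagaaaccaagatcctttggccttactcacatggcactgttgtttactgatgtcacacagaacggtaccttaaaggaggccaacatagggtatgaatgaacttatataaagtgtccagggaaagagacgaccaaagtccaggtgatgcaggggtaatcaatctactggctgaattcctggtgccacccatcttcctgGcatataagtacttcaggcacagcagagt
Cyp3a44: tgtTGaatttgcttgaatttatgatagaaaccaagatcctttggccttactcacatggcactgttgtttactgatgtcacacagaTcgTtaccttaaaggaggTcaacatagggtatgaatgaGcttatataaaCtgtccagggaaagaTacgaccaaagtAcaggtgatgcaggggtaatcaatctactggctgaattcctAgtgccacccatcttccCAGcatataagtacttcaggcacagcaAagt
*Cyp3a41b* differed from *Cyp3a41a* at 1 base (position -29), and *Cyp3a44* at 14 bases. Identity of the transcripts, which were the counted part, was not measured. Low levels in the male livers were seen in each of these 5 genes.

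**Figure D3:**
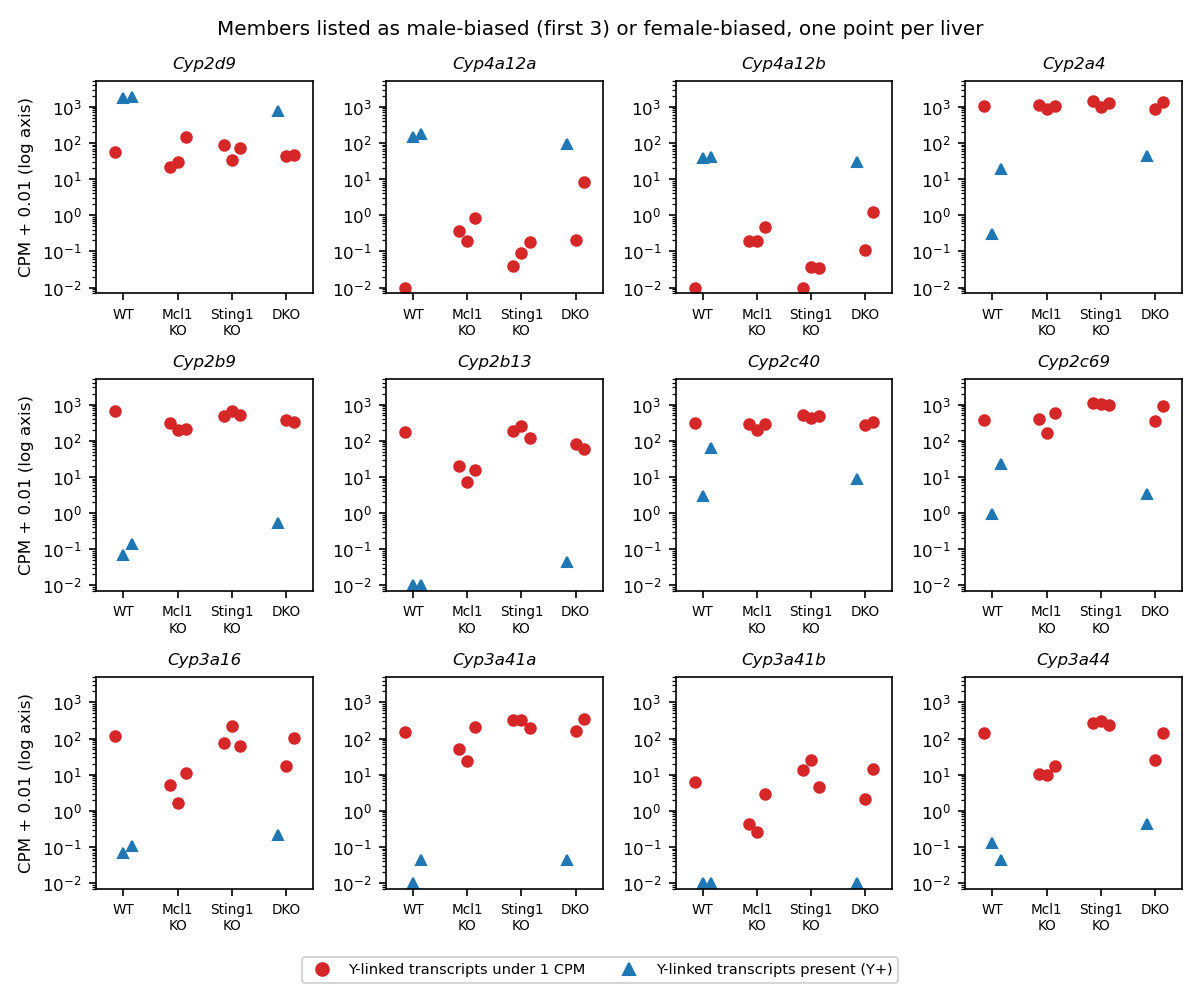
Level of the 12 members known as male-biased or female-biased in each liver, as CPM + 0.01 on a log axis, by genotype; triangles mark the livers with Y-linked transcripts. For Cyp2d9 the triangles lie at 781 to 1826 CPM and the circles at 22.0 to 148 CPM, and for Cyp2b9 the triangles lie at 0.0593 to 0.535 CPM and the circles at 198 to 676 CPM.

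The RefSeq promoter table held 45 of the 58 members. The letters TATAAA, searched on both strands, occurred in the 250-base window of 21 of these 45 (46.7%), against 12.4% of all 32851 windows in the table. The sequence CAAAGTCCA, a form of the HNF4A motif, occurred in 9 of 45 (20%), against 0.384% of all windows, and its 9 holders were *Cyp2c40*, *Cyp2c67*, *Cyp2c68*, *Cyp2c69*, *Cyp2c70*, *Cyp3a11*, *Cyp3a16*, *Cyp3a41a* and *Cyp3a41b*. The STAT5 half-site pair TTCNNNGAA occurred in 2 of 45 (4.44%; *Cyp4b1* and *Cyp4f13*), against 7.02% of all windows. Members of one cluster share sequence by descent, so these windows are not independent of each other.

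One comparison asked what loss of *Mcl1* in hepatocytes does to these genes with *Sting1* present, and the other asked the same without *Sting1*. A single member, *Cyp2c55*, changed with the same sign in both, and was higher in all 6 livers without *Mcl1*. Most other members that passed, among them *Cyp2j5*, *Cyp4f13* and 4 *Cyp2d* genes, were lower in *Mcl1* KO than in WT and missed the threshold on the *Sting1* KO background. Against WT, *Mcl1* KO livers had 4 members higher and 11 lower, beside 10.8% of all tested genes higher and 9.43% lower. Against *Sting1* KO, *Mcl1* *Sting1* DKO livers had 1 member changed, beside 0.803% of all tested genes. The share of all tested genes called in both with one sign was 0.763%. The difference between the 2 *Mcl1* effects was itself tested and called for no member by edgeR (0% of all tested genes). An unadjusted p under 0.05 was reached by 9 members and by 2165 of 15070 tested genes. DESeq2 called 172 genes, among them 1 member, *Cyp4a12a*. Its high levels were those of the male livers, which are 2 of 3 in WT and 1 of 3 in *Mcl1* *Sting1* DKO. The count of 15 members against WT became 25 without WT 1, the only female WT liver, 6 without WT 2, 8 without WT 3 and 6 without *Mcl1* KO 2, and was 18 without *Mcl1* KO 3, the library with pancreas and muscle transcripts.

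The fold changes lay below 0 in both backgrounds for 31 of 58 members (53.4%), against 32.6% of all tested genes, and above 0 in both for 9 members (15.5%), against 30.7%. The median log2 fold change of the members was -0.43 against WT and -0.18 against *Sting1* KO, where the medians of all tested genes were -0.0049 and -0.0087. Under upper-quartile scaling, which moved the median of all genes in the first comparison to 0.13, the member median was -0.29. The first member median was -0.70 without *Mcl1* KO 3, and the second was -0.34 without *Mcl1* *Sting1* DKO 3. In 7 members the 3 livers of each genotype did not overlap in either comparison and the sign was the same, a pattern that 9.87% of all tested genes showed. These were *Cyp2c55* and *Cyp4f16* on the higher side and *Cyp2j5*, *Cyp2d10*, *Cyp2d40*, *Cyp4f13* and *Cyp2c29* on the lower side. Of the 8 hepatocyte markers edgeR called 1 lower against WT, *Serpina1c*, and 0 against *Sting1* KO, with list medians of -0.00031 and -0.18. Their sums were 131863 to 168846 CPM in *Mcl1* KO and 117997 to 174201 CPM in WT. They were 147889 to 153904 CPM in *Mcl1* *Sting1* DKO and 146273 to 188199 CPM in *Sting1* KO. In whole tissue, fewer hepatocytes and less RNA per hepatocyte cannot be told apart.

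**Figure D4:**
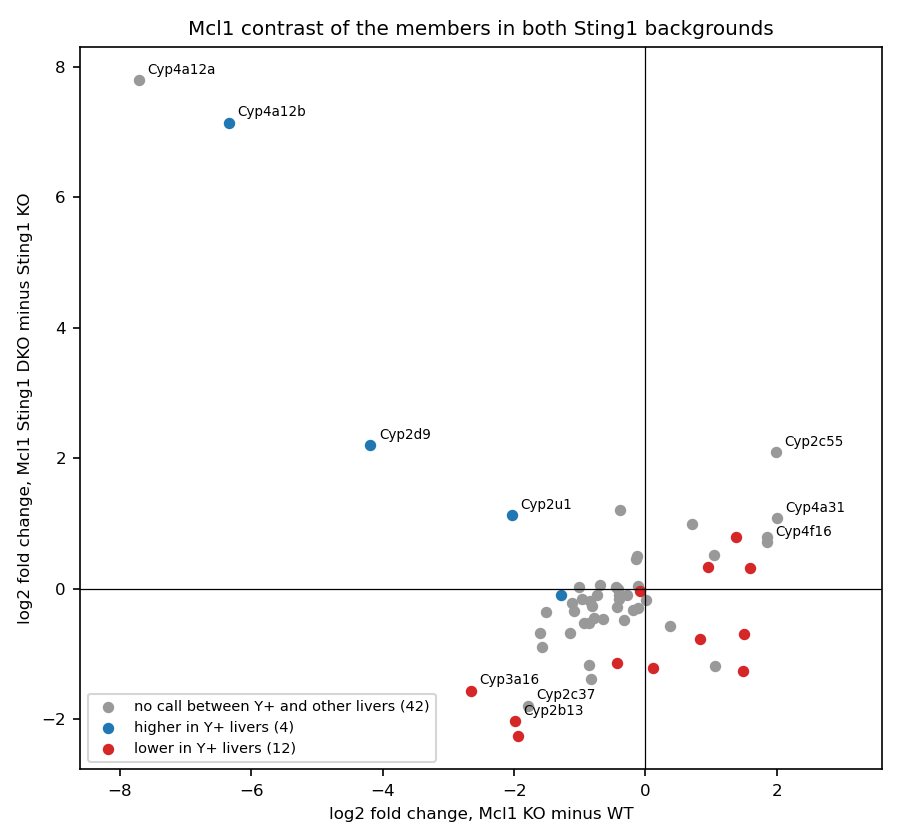
Log2 fold change of each of the 58 members for Mcl1 KO minus WT (horizontal axis) and for Mcl1 Sting1 DKO minus Sting1 KO (vertical axis); colours mark the 4 members higher and the 12 lower in male livers. Cyp2c55 lies at 1.98 and 2.09, and Cyp4a12a at -7.71 and 7.80.

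*Cyp2c55* encodes an enzyme that converts arachidonic acid to hydroxy fatty acids, and lies on chromosome 19 (ENSMUSG00000025002, chr19:38995462-39031144, plus strand, GRCm39). Its level was 7.28, 4.80 and 5.45 CPM in WT, and 13.5, 16.9 and 39.5 CPM in *Mcl1* KO. It was 3.11, 2.71 and 4.29 CPM in *Sting1* KO, and 18.5, 17.2 and 7.94 CPM in *Mcl1* *Sting1* DKO. All 6 livers without *Mcl1* lay above all 6 with it. The log2 fold change was 1.98 against WT (SE 0.42, adjusted p = 0.00878) and 2.09 against *Sting1* KO (SE 0.42, adjusted p = 0.0451), and their mean was 2.04 (SE 0.30, adjusted p = 0.00109). *Mcl1* KO 3, the library with pancreas and muscle transcripts, had the highest value, and without it the fold changes were 1.37 against WT (adjusted p = 0.0192) and 2.09 against *Sting1* KO (adjusted p = 0.0228). Male and female livers differed by 0.04 (adjusted p = 0.999). The mean effect kept its call with sex in the fit (2.04, adjusted p = 0.00153), while the call on the *Sting1* KO background was lost there (2.07, adjusted p = 0.0917) and without any one of the 3 *Sting1* KO livers (adjusted p = 0.155 to 0.238), *Mcl1* *Sting1* DKO 1 (adjusted p = 0.183) or *Mcl1* *Sting1* DKO 2 (adjusted p = 0.142). It was also lost without *Mcl1* KO 2 or any one WT liver (adjusted p = 0.0551 to 0.0702), which enter this call through the shared estimate of spread. The window before its start, chr19:38995213-38995462, is printed with its TATAAA letters, 29 bases before the start, in capitals.
Cyp2c55: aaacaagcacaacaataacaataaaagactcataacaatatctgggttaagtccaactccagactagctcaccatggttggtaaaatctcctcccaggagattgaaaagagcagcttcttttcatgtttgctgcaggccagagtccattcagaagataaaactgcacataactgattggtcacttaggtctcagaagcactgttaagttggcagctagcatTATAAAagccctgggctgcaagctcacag

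The mean of both *Mcl1* effects, which uses all 12 livers, was called for 12 members, 4 higher and 8 lower, beside 9.90% of all tested genes higher and 6.83% lower. The members higher were *Cyp2c55*, *Cyp4f16*, *Cyp4f18* and *Cyp4a31*. The members lower were *Cyp2j5*, *Cyp4f13*, *Cyp2c37* and 5 *Cyp2d* genes (*Cyp2d10*, *Cyp2d13*, *Cyp2d22*, *Cyp2d26* and *Cyp2d40*). The count was 18 without WT 1 or without *Mcl1* KO 3, 7 without *Sting1* KO 1 or without *Sting1* KO 2, and 8 without *Mcl1* KO 2 or without *Sting1* KO 3. Of the members lower, *Cyp4f13*, *Cyp2d10*, *Cyp2d13*, *Cyp2d22* and *Cyp2d40* are named after their values were seen.

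**Figure D5:**
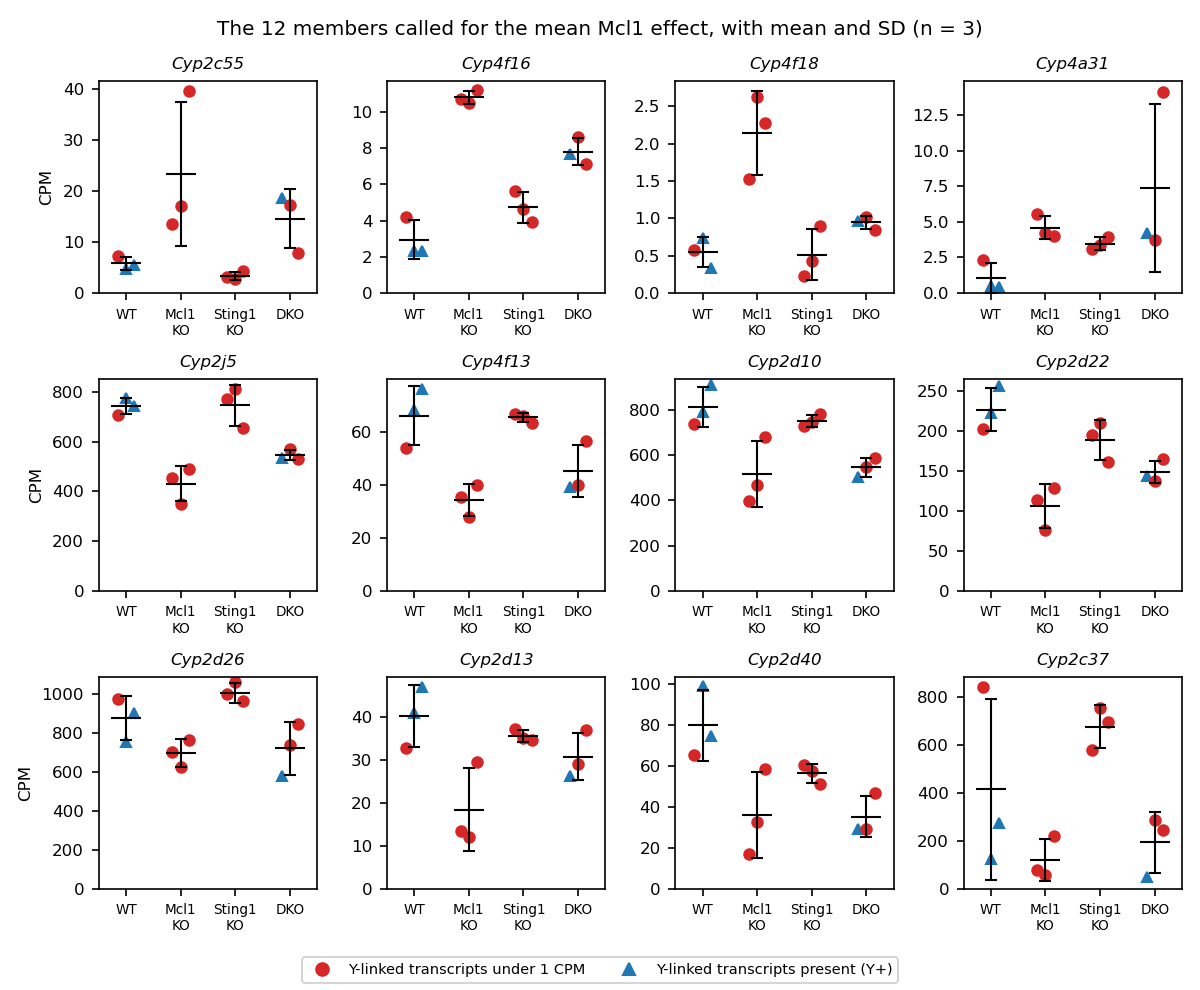
Level in CPM of the 12 members called for the mean Mcl1 effect, in each liver by genotype, with the mean and SD (n = 3). Cyp2c55 and Cyp4f16 are higher in all 6 livers without Mcl1 than in all 6 with it, and Cyp2j5 is lower in all 6.

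In the *Cyp4f* group, which oxidises leukotrienes and long-chain fatty acids, members moved in opposite directions. *Cyp4f16* stood at 4.19, 2.34 and 2.31 CPM in WT and at 10.7, 10.5 and 11.2 CPM in *Mcl1* KO, and at 5.65, 4.62 and 3.91 CPM in *Sting1* KO and 7.65, 8.58 and 7.11 CPM in *Mcl1* *Sting1* DKO. The groups did not overlap in either comparison, with a difference of 1.85 from WT (SE 0.23, adjusted p = 0.00133) and of 0.72 from *Sting1* KO (SE 0.23, adjusted p = 0.206), and a mean of 1.28 (SE 0.16, adjusted p = 0.000572). *Cyp4f18*, which inactivates leukotriene B4 in myeloid cells, was low, at 0.330 to 0.741 CPM in WT and 1.53 to 2.63 CPM in *Mcl1* KO, with overlapping ranges of 0.233 to 0.893 CPM in *Sting1* KO and 0.848 to 1.02 CPM in *Mcl1* *Sting1* DKO, and rose by a mean of 1.32 (SE 0.31, adjusted p = 0.0113). Summed macrophage markers stood at 855 to 1012 CPM in *Mcl1* KO and 467 to 704 CPM in WT, and overlapped between *Mcl1* *Sting1* DKO (777 to 877 CPM) and *Sting1* KO (587 to 804 CPM). Of 4 neutrophil markers, summing to 5.98 to 17.6 CPM in *Mcl1* KO, 1.58 to 2.46 CPM in WT, 2.81 to 3.56 CPM in *Mcl1* *Sting1* DKO and 1.08 to 4.32 CPM in *Sting1* KO, *S100a8* and *S100a9* were called higher in the mean effect (adjusted p = 0.0328 and 0.0319). *Ly6g* and *Mpo*, at 0 to 0.192 CPM, were too low to be tested. On the *Sting1* KO background *S100a8* and *S100a9* were not called (0.40, adjusted p = 0.833, and 0.13, adjusted p = 0.957). The part of either marker list in the *Cyp4f18* result was not tested. *Cyp4f18* also overlaps *Zfp961* on the opposite strand, which had 2561 counts against its 452, and whether counting used strand is not given. *Cyp4f13* stood at 54.0, 68.4 and 76.1 CPM in WT, 35.6, 27.9 and 39.9 CPM in *Mcl1* KO, 66.9, 65.9 and 63.5 CPM in *Sting1* KO, and 39.2, 39.9 and 56.5 CPM in *Mcl1* *Sting1* DKO, and fell by a mean of 0.74 (SE 0.13, adjusted p = 0.00352). *Cyp4f14*, the most abundant of the group and an omega-hydroxylase of vitamin E and leukotrienes, had a mean difference of -0.36 that did not pass (adjusted p = 0.195).

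The *Cyp2d* group, which includes the mouse relatives of the human drug-metabolising enzyme CYP2D6, had 6 of its 8 members below 0 in both backgrounds, and 5 fell in the mean effect. *Cyp2d22* stood at 202, 222 and 255 CPM in WT, 114, 75.6 and 129 CPM in *Mcl1* KO, 195, 209 and 161 CPM in *Sting1* KO, and 143, 137 and 164 CPM in *Mcl1* *Sting1* DKO. It was lower in every *Mcl1* KO liver than in every WT liver (-1.09, SE 0.20, adjusted p = 0.00484), while the groups met on the *Sting1* KO background (-0.35, adjusted p = 0.567). *Cyp2d10* stood at 737, 788 and 907 CPM in WT, 399, 468 and 681 CPM in *Mcl1* KO, 729, 744 and 782 CPM in *Sting1* KO, and 502, 545 and 589 CPM in *Mcl1* *Sting1* DKO, without overlap in either comparison (mean -0.56, SE 0.13, adjusted p = 0.0159). *Cyp2d26*, the most abundant, stood at 971, 754 and 901 CPM in WT and 699, 622 and 764 CPM in *Mcl1* KO, which overlap, and at 996, 1061 and 960 CPM in *Sting1* KO and 577, 738 and 847 CPM in *Mcl1* *Sting1* DKO, which do not (mean -0.41, SE 0.12, adjusted p = 0.0382). The mean effects of the remaining pair were -0.67 for *Cyp2d13* (SE 0.20, adjusted p = 0.0421) and -0.91 for *Cyp2d40* (SE 0.25, adjusted p = 0.0282). The mean-effect calls of *Cyp2d10* and *Cyp2d22* held without any one liver. That of *Cyp2d13* held only without WT 1, *Mcl1* KO 3 or *Mcl1* *Sting1* DKO 3 (adjusted p = 0.0577 to 0.095 without another), and that of *Cyp2d26* only without WT 2, *Mcl1* KO 1, *Mcl1* KO 3 or *Mcl1* *Sting1* DKO 3 (0.0621 to 0.0897 without another). That of *Cyp2d40* was lost without WT 2, *Mcl1* KO 2, *Sting1* KO 1 or 2, or *Mcl1* *Sting1* DKO 1 or 2 (adjusted p = 0.0583 to 0.0689). *Cyp2d9* had the most negative fold change of the group against WT, -4.19 (SE 1.39, adjusted p = 0.0526), and a fold change of 2.20 on the *Sting1* KO background (adjusted p = 0.588). With sex in the fit its difference from WT was -0.06 (adjusted p = 0.967).

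All 3 *Cyp2j* members lay below 0 in both backgrounds. *Cyp2j5*, the epoxygenase named above, stood at 710, 777 and 744 CPM in WT, 454, 351 and 489 CPM in *Mcl1* KO, 772, 811 and 655 CPM in *Sting1* KO, and 537, 570 and 532 CPM in *Mcl1* *Sting1* DKO. Every liver without *Mcl1* was below every liver with it, with a difference of -0.78 from WT (SE 0.15, adjusted p = 0.00694) and of -0.45 from *Sting1* KO (SE 0.15, adjusted p = 0.26), with a mean of -0.62 (SE 0.11, adjusted p = 0.00346). *Cyp2j9*, named after its values were seen, was called lower against WT alone (-0.84, adjusted p = 0.0301), with a fold change of -0.19 on the *Sting1* KO background, and lost the call without WT 2, WT 3, *Mcl1* KO 2 or *Mcl1* KO 3 (adjusted p = 0.0777 to 0.11). *Cyp4v3*, a fatty acid omega-hydroxylase whose human counterpart is mutated in a corneoretinal dystrophy, was called lower against WT alone (-1.02, SE 0.23, adjusted p = 0.0123), with 0.02 on the *Sting1* KO background (adjusted p = 0.986). The call was lost without *Mcl1* KO 2 (adjusted p = 0.0547) or WT 2 (adjusted p = 0.0551). Its span is shared on the same strand with *Gm45753*, which had 155783 counts against its 173219, so its values are uncertain.

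Of the 13 *Cyp2c* members, which lie on chromosome 19 and include epoxygenases of arachidonic acid, 8 lay below 0 in both backgrounds and 1, *Cyp2c55*, above. *Cyp2c37* stood at 844, 124 and 277 CPM in WT, 78.9, 58.3 and 222 CPM in *Mcl1* KO, 579, 756 and 697 CPM in *Sting1* KO, and 50.0, 287 and 247 CPM in *Mcl1* *Sting1* DKO. WT 1 was far above the male livers WT 2 and WT 3, and the lowest *Mcl1* *Sting1* DKO liver was the male one. The mean effect was -1.80 (SE 0.52, adjusted p = 0.0359), and -2.17 (SE 0.33, adjusted p = 0.00165) with sex in the fit. Without sex in the fit the call held only without WT 2, WT 3, *Mcl1* KO 3 or *Mcl1* *Sting1* DKO 2 (adjusted p = 0.0551 to 0.0873 without another liver). *Cyp2c54*, a further arachidonic acid epoxygenase, stood at 333, 165 and 390 CPM in WT and at 45.5, 34.2 and 219 CPM in *Mcl1* KO, and its mean difference of -1.24 did not pass (SE 0.46, adjusted p = 0.0868). *Cyp2c29* stood at 1720, 1346 and 1445 CPM in WT, 588, 517 and 1196 CPM in *Mcl1* KO, 1109, 1178 and 1177 CPM in *Sting1* KO, and 941, 1076 and 1098 CPM in *Mcl1* *Sting1* DKO. It was called lower against WT alone (-0.97, SE 0.27, adjusted p = 0.0265), with -0.15 on the *Sting1* KO background (adjusted p = 0.896), and the call was lost without *Mcl1* KO 2 or any one WT liver (adjusted p = 0.0554 to 0.0966). For *Cyp2c37*, *Cyp2c54* and *Cyp2c29*, *Mcl1* KO 1 and 2 were lower than *Mcl1* KO 3. The sum of 8 pericentral markers, none of them a member, stood at 4151, 3313 and 9940 CPM in *Mcl1* KO 1, 2 and 3 and 6018, 10284 and 12092 CPM in *Mcl1* *Sting1* DKO 1, 2 and 3, against 11095 to 12355 CPM in WT and 10505 to 12727 CPM in *Sting1* KO. Of the 8, edgeR called 2 lower against WT, *Cyp2e1* and *Cyp1a2*, both P450 genes, and *Cyp2e1* gave 6899 of the 12355 CPM in WT 1. *Glul*, *Slc1a2*, *Rgn*, *Axin2* and *Tbx3* lay below 0 and *Oat* above it (0.24), all without a call. The part of the pericentral markers in these *Cyp2c* values was not tested.

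The members known as targets of nuclear receptors did not move as one group. *Cyp3a11* stood at 3860, 3218 and 983 CPM in WT, 3108, 3928 and 9497 CPM in *Mcl1* KO, 1677, 2366 and 2217 CPM in *Sting1* KO, and 3169, 3540 and 2266 CPM in *Mcl1* *Sting1* DKO. Its genotypes overlapped and the mean difference of 0.78 did not pass (adjusted p = 0.136). *Cyp2b10*, the standard CAR target, stood at 35.2, 0.208 and 0.132 CPM in WT, 44.0, 38.9 and 25.0 CPM in *Mcl1* KO, 8.12, 14.6 and 9.84 CPM in *Sting1* KO, and 3.74, 23.9 and 12.7 CPM in *Mcl1* *Sting1* DKO. It followed sex (-4.28 in male livers, SE 0.84, adjusted p = 0.0341), and its mean *Mcl1* difference of 0.95 did not pass (adjusted p = 0.488). The PPAR-alpha targets *Cyp4a10* and *Cyp4a14* were lower in male livers, with coefficients of -2.88 (adjusted p = 0.0438) and -4.65 (adjusted p = 0.00827), and their mean *Mcl1* differences of 0.64 (adjusted p = 0.528) and 1.09 (adjusted p = 0.449) did not pass. *Cyp4a10* ran from 18.4 CPM in WT 2 to 1083 CPM in *Mcl1* *Sting1* DKO 3, and *Cyp4a14* from 3.50 CPM in WT 3 to 1156 CPM in that same *Mcl1* *Sting1* DKO liver. The third PPAR-alpha target, *Cyp4a31*, stood at 2.30, 0.534 and 0.429 CPM in WT, 5.52, 4.22 and 4.02 CPM in *Mcl1* KO, 3.08, 3.37 and 3.96 CPM in *Sting1* KO, and 4.24, 3.73 and 14.1 CPM in *Mcl1* *Sting1* DKO. It rose against WT (2.01, SE 0.62, adjusted p = 0.0369) and in the mean effect (1.54, SE 0.42, adjusted p = 0.026), with overlapping livers on the *Sting1* KO background (1.07, adjusted p = 0.535). The call against WT was lost without WT 2, WT 3 or any one *Mcl1* KO or *Sting1* KO liver (adjusted p = 0.0519 to 0.125), and that of the mean without WT 2, WT 3, *Mcl1* *Sting1* DKO 3 or any one *Sting1* KO liver (adjusted p = 0.0503 to 0.0634).

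Placing sex in the fit changed which members were called. Against WT, 10 members were then called in *Mcl1* KO, beside 10.2% of all tested genes. *Cyp2j5*, *Cyp2d22*, *Cyp4f16*, *Cyp4f13*, *Cyp2c55* and *Cyp2c29* kept their call, and *Cyp2b13*, *Cyp3a16*, *Cyp3a44* and *Cyp2c37* gained it. The calls of *Cyp2j9*, *Cyp4v3*, *Cyp4f18*, *Cyp4a31*, *Cyp2d10*, *Cyp2d13* and *Cyp2d40* against WT were lost. None was called on the *Sting1* KO background by edgeR, beside 0.299% of all tested genes. There 14 members had an unadjusted p under 0.05, beside 1493 of 15070 tested genes. DESeq2 with the same sex factor called 4 members. In the mean effect 15 members were called, 4 higher and 11 lower, beside 17.3% of all tested genes. The mean-effect call of *Cyp2d13* was lost. *Cyp4a12a* and *Cyp4a12b*, called lower against WT without sex in the fit (-7.71, adjusted p = 0.0309, and -6.33, adjusted p = 0.0404), were not called with it (*Cyp4a12a* -1.49, adjusted p = 0.631, and *Cyp4a12b* -0.21, adjusted p = 0.906) nor without WT 2, WT 3 or any one *Mcl1* KO liver (adjusted p = 0.0602 to 0.118 for *Cyp4a12a* and 0.0799 to 0.139 for *Cyp4a12b*), and their fold changes were above 0 on the *Sting1* KO background (7.80 and 7.14).

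*Cyp2b13*, *Cyp3a16* and *Cyp3a44*, female-type genes, fell in the mean effect once sex was in the fit. In a fit of the 9 female livers alone, where WT is 1 liver assumed to vary like the other groups, *Cyp2b13* and *Cyp3a44* passed, *Cyp3a16* did not (-2.61, adjusted p = 0.105), and *Cyp2b9*, which did not pass with sex in the fit (-0.69, adjusted p = 0.152), did (-1.06, SE 0.19, adjusted p = 0.0373). *Cyp2b13* stood at 171 CPM in the female WT liver and at 20.1, 7.07 and 15.8 CPM in the *Mcl1* KO livers, and at 191, 255 and 117 CPM in *Sting1* KO and 79.7 and 58.0 CPM in the female *Mcl1* *Sting1* DKO livers. Every female liver without *Mcl1* was below every female liver with it, and the mean effect was -2.44 (SE 0.33, adjusted p = 0.000805) with sex in the fit and -2.51 (adjusted p = 0.0277) in the 9 female livers alone. *Cyp3a44* stood at 145 CPM in the female WT liver, 10.4, 9.61 and 17.5 CPM in *Mcl1* KO, 265, 303 and 237 CPM in *Sting1* KO, and 25.0 and 142 CPM in the female *Mcl1* *Sting1* DKO livers, with a mean effect of -2.33 (SE 0.45, adjusted p = 0.00622) with sex in the fit and -2.61 (adjusted p = 0.0359) in female livers alone. *Cyp3a16* stood at 114 CPM in the female WT liver, 5.21, 1.68 and 11.2 CPM in *Mcl1* KO, 75.4, 222 and 60.9 CPM in *Sting1* KO, and 17.5 and 103 CPM in the female *Mcl1* *Sting1* DKO livers (-2.47, SE 0.61, adjusted p = 0.0187 with sex in the fit). On the *Sting1* KO background alone these did not pass (adjusted p = 0.236 for *Cyp2b13*, 0.479 for *Cyp3a44* and 0.827 for *Cyp3a16*). *Cyp2a4*, also female-type, did not share this pattern, at 1058 CPM in the female WT liver, 1138, 843 and 1056 CPM in *Mcl1* KO, 1413, 1002 and 1306 CPM in *Sting1* KO, and 874 and 1376 CPM in the female *Mcl1* *Sting1* DKO livers. *Cyp2c40*, *Cyp2c69*, *Cyp3a41a* and *Cyp3a41b* were not called in the mean effect with sex in the fit either. In the female WT liver they stood at 309, 383, 156 and 6.15 CPM. Their *Mcl1* KO ranges were 196 to 295, 167 to 578, 24.6 to 202 and 0.245 to 2.88 CPM.

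Loss of *Sting1* itself changed no member by edgeR, with or without *Mcl1*. Between *Sting1* KO and WT 0% of all tested genes were called. An unadjusted p under 0.05 was reached by 8 of 58 members and by 821 of 15070 tested genes. DESeq2 called 49 genes, among them 1 member, *Cyp4a12a*. Between *Mcl1* *Sting1* DKO and *Mcl1* KO 0% of all tested genes were called. Here 9 of 58 members had an unadjusted p under 0.05, beside 3098 of 15070 tested genes. DESeq2 called 671 genes, with *Cyp4a12a* again the only member. In both comparisons 1 side holds male livers and the other none, so sex and genotype are partly confounded. *Cyp4a12a* stood at 142, 171 and 92.6 CPM in the male livers WT 2, WT 3 and *Mcl1* *Sting1* DKO 1. In female livers it stood at 0 CPM in WT 1 and 0.0291, 0.0796 and 0.169 CPM in *Sting1* KO. It was 0.352, 0.184 and 0.822 CPM in *Mcl1* KO, and 0.195 and 8.40 CPM in *Mcl1* *Sting1* DKO 2 and 3.

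Part of the genes that serve the P450 system was lower in *Mcl1* KO than in WT. Of 4 redox partners, *Cyb5b*, the mitochondrial outer membrane cytochrome b5 (-1.01, adjusted p = 0.00559), and *Cyb5r3*, a cytochrome b5 reductase (-0.99, adjusted p = 0.00392), fell in *Mcl1* KO. The P450 reductase *Por* (-0.45, adjusted p = 0.355) and the cytochrome b5 *Cyb5a* (-0.26, adjusted p = 0.394) were not called. On the *Sting1* KO background edgeR and DESeq2 called 0 of the 4, and 0 had an unadjusted p under 0.05, with list medians of -0.72 against WT and -0.26 against *Sting1* KO. Of 8 genes of heme synthesis edgeR called 0 against WT (2 at an unadjusted p under 0.05, and DESeq2 called 2) and 0 against *Sting1* KO (1 at an unadjusted p under 0.05, and DESeq2 called 0). *Alas1*, the rate-limiting enzyme of that pathway in liver, fell by 1.21 in the mean effect (SE 0.33, adjusted p = 0.0274). Of 23 transcriptional regulators of P450 genes, 9 fell against WT and 0 rose, while on the *Sting1* KO background edgeR and DESeq2 called 0 (2 at an unadjusted p under 0.05 by edgeR), with medians of -0.46 and -0.26. Those that fell included *Ghr*, the growth hormone receptor (-1.20, adjusted p = 0.00209), *Stat5b*, its signal transducer (-0.53, adjusted p = 0.0497), *Ppara* (-0.83, adjusted p = 0.0264), the common receptor partner *Rxra* (-0.87, adjusted p = 0.00973) and the liver factors *Cebpa* (-1.04, adjusted p = 0.00563) and *Onecut1* (-2.31, adjusted p = 0.00483). *Onecut1* stood at 59.2 to 75.4 CPM in WT and 7.22 to 23.6 CPM in *Mcl1* KO. It was also low in *Sting1* KO livers (13.7 to 19.8 CPM), beside 11.5 to 25.4 CPM in *Mcl1* *Sting1* DKO (-0.07, adjusted p = 0.971). The PXR gene *Nr1i2* (0.15, adjusted p = 0.477), the CAR gene *Nr1i3* (-0.64, adjusted p = 0.383) and *Hnf4a* (-0.46, adjusted p = 0.0958) were not called against WT. Between male and female livers only *Cux2*, a female-type repressor in liver, changed among the 23 (-6.09, adjusted p = 0.00429). Of 14 tested genes of other P450 families, 5 fell against WT, among them the bile acid enzymes *Cyp7b1* (-5.27, adjusted p = 0.00726, with a male sex coefficient of 3.26), *Cyp8b1* (-2.23, adjusted p = 0.0338) and *Cyp27a1* (-1.29, adjusted p = 0.0191). The cholesterol 24-hydroxylase *Cyp46a1* was called lower both against WT (-1.85, adjusted p = 0.0244) and, as the only 1 of the list, on the *Sting1* KO background (-2.45, adjusted p = 0.0473). Its levels were low, at 0.0334 to 1.59 CPM. These lists were chosen with earlier results of these data known. Their calls come from fits without sex or small RNA share. How far they depend on those factors or on single livers is not given here. Their counts stand beside 9.43% of all tested genes called lower and 10.8% called higher against WT, and 0.803% called against *Sting1* KO. By edgeR, 5558 of 15070 tested genes had an unadjusted p under 0.05 against WT, and 1709 against *Sting1* KO. The medians of these lists stand beside -0.0049 and -0.0087 for all tested genes, and some marker lists also moved. Of 6 stellate cell and fibroblast markers 4 were called higher against WT and in the mean effect, with sums of 788 to 897 CPM in *Mcl1* KO, 406 to 638 CPM in WT, 642 to 867 CPM in *Mcl1* *Sting1* DKO and 426 to 513 CPM in *Sting1* KO. Summed proliferation markers stood at 36.7 to 124 CPM in *Mcl1* KO and 40.0 to 136 CPM in *Mcl1* *Sting1* DKO, against 8.84 to 18.0 CPM in the livers with *Mcl1*.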

How the data were processed

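Whole liver RNA from 12 mice (4 genotypes, 3 livers each) was sequenced, and the authors deposited raw counts of reads per Ensembl gene, 1 table per liver, made with STAR and featureCounts on GRCm39 per the labels (versions, strand setting, handling of multiply mapped reads and annotation release are not given in the sources used here). The 12 tables held the same 40551 genes. Counts were fitted with edgeR 4.0.16 (R 4.3.3) in 1 quasi-likelihood model of all libraries, with TMM scaling. Genes were filtered with filterByExpr by genotype (15070 genes, all 58 members). A prior count of 2 and Benjamini-Hochberg adjustment at 0.05 were used. The SE is the fold change fitted without the prior count, divided by the square root of F. Printed fold changes include the prior count. The study names its analysis platform, but no test, for single genes. TPM used summed exon lengths of GENCODE vM39, which lacked 1018 identifiers with at most 0.101% of counts. Alternatives were DESeq2 1.42.0, other scalings and filters, a replicate block, sex, small RNA share and leaving out each liver. Sex was called at 1 CPM of Y-linked transcripts. Scripts were tested on simulated data. No pair of libraries of the same genotype agreed within sampling noise, and pairs across genotypes were not checked. Named members were those called in both Sting1 backgrounds, the leading member of each subfamily, listed sex-biased genes and receptor targets, the 5 largest mean rises and falls, and members whose calls had opposite signs. Members and lists were chosen with earlier results of these data known. Figures were drawn with matplotlib 3.10.9. Depth per library limits low genes, and counts carry sampling error beside the spread between livers.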

Additional observations from a re-analysis of the deposited data

How the results depend on the processing

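Over 660 values of single members under an alternative, 467 kept direction and side of the threshold, 189 kept direction and no longer passed, and 4 reversed. The reversed ones were Cyp4a12a and Cyp4a12b against WT, at 3.24 and 2.64 in female livers only and at 1.08 and 1.67 with a sex factor in DESeq2, a setting chosen after seeing the data. The call of Cyp2c55 in both backgrounds was lost (0 members) with the replicate block, the sex factor, the small RNA covariate, female livers only, own libraries only, and sex and small RNA together, and DESeq2 with sex called 4 members in both. Against Sting1 KO these 6 settings also gave 0 members, DESeq2 gave 2 and DESeq2 with sex 4. Against WT the count fell from 15 to 1 with the small RNA covariate (Cyp4f16), 1 with sex and small RNA, 0 in female livers, where WT is 1 liver, and 5 with the own libraries only. The mean effect gave 5 members in female livers and 23 by DESeq2 with sex. DESeq2 called 1 member each for the difference of the Mcl1 effects, Sting1 KO against WT, and Mcl1 Sting1 DKO against Mcl1 KO, and 5 for the last with sex. Male against female livers gave 10 in the genotypes with both sexes. The cause of these changes was not tested, beyond the smaller number of livers in the reduced sets.

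Leaving out 1 liver at a time gave 6 to 25 members against WT, 0 to 1 against Sting1 KO, 0 to 1 in both, 7 to 18 for the mean effect, 0 to 4 for the difference, 0 to 1 for Sting1 KO against WT, 0 to 2 for Mcl1 Sting1 DKO against Mcl1 KO and 7 to 17 for sex. The difference gave 4 without WT 1 and 2 without Mcl1 KO 1, Sting1 KO against WT gave 1 without WT 1, and Mcl1 Sting1 DKO against Mcl1 KO gave 2 without Mcl1 KO 1.

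Replicate numbers were shared by the genotypes, but same-numbered livers did not deviate together (correlations of -0.60 to 0.345, over 0.1 in 3 of 18 pairs). The replicate block gave 14 members against WT, 0 against Sting1 KO and 11 for the mean effect. What limits the number of calls was not tested.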
